A study of Mus musculus with 6 samples.

Results

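Mucins and the enzymes that build mucin-type O-glycans were examined as a set of 10 genes, namely the transmembrane mucin genes Muc1, Muc4 and Muc13, the initiating enzymes Galnt3 and Galnt12, the core enzyme C1galt1 with its chaperone C1galt1c1, and the branching enzymes Gcnt1, Gcnt2 and Gcnt3. They were taken by symbol from the 24393 genes listed in the count files, and all 10 were listed. Read counts came from 3 CONTROL and 3 HOXA13 libraries of KH2 mouse embryonic stem cells, a line of C57/BL/6 label with a docking site for doxycycline-inducible genes. The HOXA13 cells were targeted clones carrying the human HOXA13 gene with a FLAG tag, and the study describes the 3 samples of each group as biological replicates. Both groups were grown for 6 days towards definitive endoderm, the germ layer of the gut lining, on M15 mesodermal feeder cells with Activin-A, bFGF, Noggin and CHIR. Doxycycline at 1.25 µg/ml was given from day 4, CXCR4+/E-cadherin+ cells were collected by sorting at day 6, and RNA was taken after a further day of culture. The labels give this 1 protocol, doxycycline included, for every sample and do not say separately whether CONTROL cells received doxycycline or carried an empty cassette.

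Mucins are long proteins rich in serine and threonine that coat epithelial surfaces of the gut. Sugars are added to them in the Golgi, beginning with a GalNAc residue attached by a polypeptide GalNAc transferase (the Galnt family). C1galt1 adds galactose to form the core 1 structure, which requires its chaperone C1galt1c1 (Cosmc), and Gcnt1 and Gcnt3 then add a branch to form core 2. Gcnt3, the mucin-type branching enzyme, also forms core 4, whereas Gcnt2 branches the long lactosamine chains that carry the I blood group antigen. Chains are extended by B3gnt and B4galt enzymes and capped by sialic acid, fucose or sulfate.

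Gene-level counts pool all start sites of a gene, and Gcnt2 is one whose 3 annotated starts lie far apart. Promoter windows of RefSeq (GRCm38.p6) were available for 7 of the 10 genes, and each of the 12 windows of these genes matched the mm9 genome exactly and once. Gcnt3, Galnt12 and C1galt1c1 had no entry. The 250 bases before the start are shown for Gcnt2 (all 3 windows), Gcnt1, Muc1 and Muc13, 5′ to 3′ on the coding strand, with CG dinucleotides in capitals. Of the 3 windows of Gcnt1 and the 2 of Muc13, only the one directly before the start of the mm9 gene model is shown.
Gcnt1 (mm9, chr19:17431158-17431407, minus strand): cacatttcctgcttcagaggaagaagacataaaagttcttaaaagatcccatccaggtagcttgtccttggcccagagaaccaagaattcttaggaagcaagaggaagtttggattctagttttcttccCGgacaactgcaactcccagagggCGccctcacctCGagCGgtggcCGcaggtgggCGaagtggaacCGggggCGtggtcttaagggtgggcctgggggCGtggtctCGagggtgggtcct
Gcnt2, upstream start (mm9, chr13:40954887-40955136, plus strand): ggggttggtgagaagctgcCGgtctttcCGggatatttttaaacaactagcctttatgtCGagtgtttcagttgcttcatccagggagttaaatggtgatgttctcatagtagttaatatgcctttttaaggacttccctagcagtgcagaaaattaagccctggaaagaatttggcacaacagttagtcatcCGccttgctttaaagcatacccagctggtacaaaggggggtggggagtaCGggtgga
Gcnt2, middle start (mm9, chr13:40981877-40982126, plus strand): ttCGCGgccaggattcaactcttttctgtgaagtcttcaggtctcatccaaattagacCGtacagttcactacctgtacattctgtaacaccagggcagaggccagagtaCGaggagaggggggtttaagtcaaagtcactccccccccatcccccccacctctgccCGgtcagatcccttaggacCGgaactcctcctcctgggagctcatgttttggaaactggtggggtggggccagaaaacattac
Gcnt2, downstream start (mm9, chr13:41012753-41013002, plus strand): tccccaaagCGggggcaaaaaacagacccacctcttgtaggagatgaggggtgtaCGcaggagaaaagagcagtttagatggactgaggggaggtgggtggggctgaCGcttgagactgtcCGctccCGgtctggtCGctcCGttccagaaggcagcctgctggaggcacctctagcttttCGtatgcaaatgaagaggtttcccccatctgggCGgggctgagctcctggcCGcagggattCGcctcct
Muc1 (mm9, chr3:89032728-89032977, plus strand): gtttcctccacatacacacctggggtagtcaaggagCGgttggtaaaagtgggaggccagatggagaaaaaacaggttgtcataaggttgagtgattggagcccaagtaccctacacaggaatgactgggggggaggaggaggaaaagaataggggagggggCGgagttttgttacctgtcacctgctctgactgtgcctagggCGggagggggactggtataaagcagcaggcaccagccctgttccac
Muc13 (mm9, chr16:33793873-33794122, plus strand): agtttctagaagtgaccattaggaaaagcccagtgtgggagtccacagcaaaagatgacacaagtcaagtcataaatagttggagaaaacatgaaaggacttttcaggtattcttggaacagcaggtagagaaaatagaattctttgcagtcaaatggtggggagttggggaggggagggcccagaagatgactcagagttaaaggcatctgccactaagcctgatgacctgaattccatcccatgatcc
The window shown for Gcnt1 held 10 CG dinucleotides, and its other windows held 2 each. The Gcnt2 windows held 5, 6 and 11, that of Muc1 held 3, those of Muc13 held 0 (shown) and 4, and that of Muc4 held 1. Galnt3 and C1galt1, which are not shown, had 34 and 44, and the median over all 32851 windows was 6. The letters CAATAAA and TCGTAAA, which HOX13 proteins are known to prefer, were searched on both strands from 250 bases before to 50 bases after each start. TTTATTG, the reverse complement of CAATAAA, occurred at bases 20 and 42 after the upstream start of Gcnt2, and none of the other 11 windows held either word. Over all windows CAATAAA was found in 4.60% and TCGTAAA in 0.597%.

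The libraries held between 12279884 and 17331638 counts, so that a floor of 3 counts lay between 0.176 and 0.240 CPM (the read count scaled to the TMM-normalised library size), which covers counting error only. Values of single libraries are given below in the order of replicates 1, 2 and 3 of each group. A row under the human HOXA13 gene identifier had 0 counts in each CONTROL library and 2497, 7666 and 6572 counts in the HOXA13 libraries. CONTROL replicate 2 stood apart from the other CONTROL libraries, with Spearman's rho across genes of 0.908 and 0.931 to them and 0.951 to 0.961 to the HOXA13 libraries. The 9 pluripotency markers summed to 976 CPM in it, against 21.7 to 62.1 CPM in the other CONTROL and 136 to 410 CPM in the HOXA13 libraries. Of the definitive endoderm markers Cer1 had no count in any library, and the 11 genes summed to 156, 120 and 191 CPM in the CONTROL and 79.7, 121 and 80.9 CPM in the HOXA13 libraries. Eomes, the marker with the highest mean, was lower without overlap (log2 fold change -1.32, SE 0.33, adjusted p 0.141 in edgeR and 0.00575 in DESeq2). It made up 89.0, 49.0 and 111 CPM of these sums in the CONTROL and 24.4, 41.9 and 33.0 CPM in the HOXA13 libraries. Of the 9 markers tested, 4 were higher and 5 lower by fitted log2 fold change, with a median of -0.02. Eomes was the only 1 without overlap, against 8.52% of all genes lower without overlap.

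The comparison of HOXA13 with CONTROL cells asked whether forced HOXA13 expression changes this pathway. The 3 branching enzymes, Galnt3 and C1galt1 were each higher in all 3 HOXA13 libraries than in any CONTROL library, whereas Muc1, Muc4, Muc13, Galnt12 and C1galt1c1 overlapped between the groups. The largest difference was that of Gcnt3, which was 8.69-fold higher. After Benjamini-Hochberg adjustment over the 13600 genes tested, no gene of the set passed 0.05 in the quasi-likelihood test of edgeR (0 of 9, with 3 at an unadjusted p under 0.05), where 0.309% of all genes passed and 14.1% had an unadjusted p under 0.05. DESeq2, the tool of the study, called Gcnt1 and Gcnt3, 2 of the 10, both higher, where 5.05% of all genes were called (3.11% higher and 1.94% lower). The share of all tested genes that were higher without overlap was 11.5%, against 5 of the 9 genes tested here. The median log2 fold change of the 9 genes was 0.66, and 6 of them were above 0, while that of all tested genes was -0.01 and 48.8% were above 0. Without CONTROL replicate 2, edgeR called Gcnt1, Gcnt2 and Gcnt3 (3 genes, all higher, with 7.92% of all genes called higher and 6.32% lower), and 7 of the 9 were higher without overlap against 25.3% of all genes (23.9% lower).

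**Figure D1:**
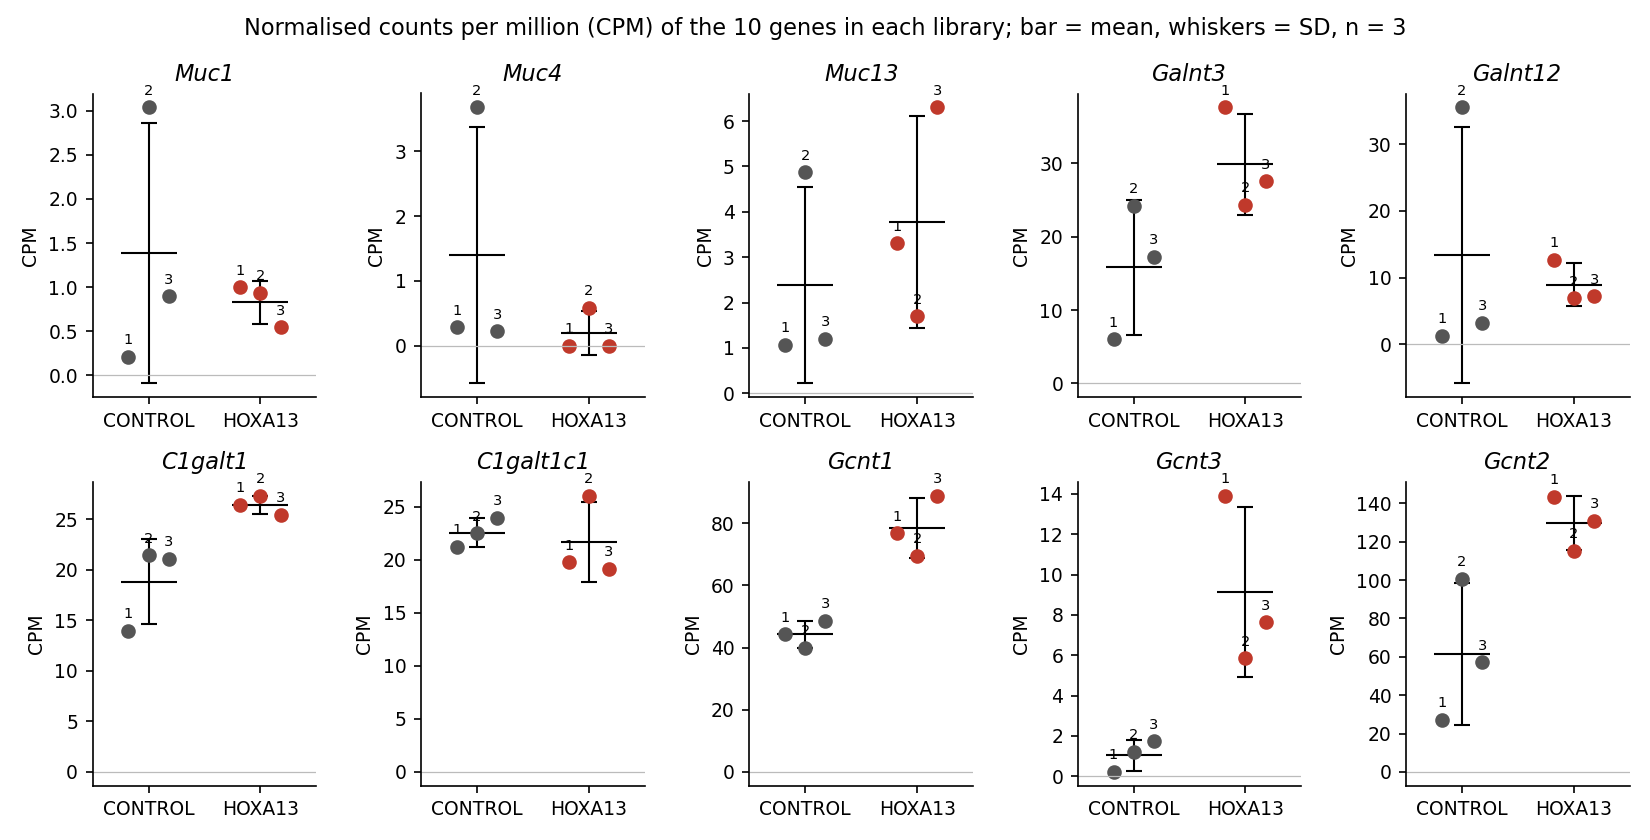
Normalised CPM (vertical axis of each panel) of the 10 genes in the 3 CONTROL (grey) and 3 HOXA13 (red) libraries, with the replicate number at each point, the mean as a bar and the SD as whiskers. Gcnt1, Gcnt2, Gcnt3, Galnt3 and C1galt1 show no overlap between the groups. CONTROL replicate 2 is the highest CONTROL library for Muc1, Muc4, Muc13 and Galnt12, and also for Gcnt2, Galnt3 and C1galt1.

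Gcnt3 (mm9, chromosome 9, 69879303 to 69885895, minus strand) received 3, 15 and 23 reads in the CONTROL libraries, whereas the HOXA13 libraries held 181, 100 and 126. Normalised, CONTROL libraries gave 0.213, 1.20 and 1.72 CPM, and HOXA13 libraries gave 13.9, 5.86 and 7.64 CPM. Every HOXA13 library lay above every CONTROL library, and CONTROL replicate 1 was at the floor. The CONTROL level of 1.05 ± 0.768 CPM compared with 9.14 ± 4.23 CPM under HOXA13 (SD, n = 3). The log2 fold change was 3.12 (SE 0.78, adjusted p 0.136 in edgeR and 0.00211 in DESeq2). The study itself singled out Gcnt3 from these samples and reported a smaller fold change than that found here, so its direction is not independent evidence. When each of the 6 libraries was left out in turn its log2 fold change lay between 2.61 and 3.67. The 5 genes whose log2 CPM followed Gcnt3 most closely over the 6 samples, among 10728 genes averaging 5 CPM or more, were Stag1, Thap4, Tmem102, Bzw1 and Acbd6, with Pearson's r from 0.992 to 0.999, a description over samples that share the group difference.

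Gcnt1 (mm9, chromosome 19, 17400631 to 17431157, minus strand), the core 2 enzyme found in many tissues, measured 44.3, 39.9 and 48.6 CPM across the CONTROL libraries. The HOXA13 libraries gave 76.8, 69.6 and 88.8 CPM. The CONTROL values were close together, with CONTROL replicate 2 the lowest of all 6 libraries. The log2 fold change was 0.82 (SE 0.18), a 1.77-fold difference (adjusted p 0.107 in edgeR, 0.0121 in DESeq2). Gcnt1 had the smallest SE of the genes of the set without overlap.

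Gcnt2 (mm9, chromosome 13, 40955501 to 41056260, plus strand), the I-branching enzyme, had the highest level of the set in HOXA13 cells. CONTROL libraries gave 27.1, 101 and 57.1 CPM, and HOXA13 libraries gave 143, 115 and 131 CPM. The groups did not overlap, but CONTROL replicate 2 came close to HOXA13 replicate 2. The log2 fold change was 1.08 (SE 0.41, adjusted p 0.290 in edgeR, 0.112 in DESeq2). Without CONTROL replicate 2 it was 1.61 (edgeR adjusted p 0.00928), and without CONTROL replicate 1 it was 0.69 (edgeR adjusted p 0.496). On the opposite strand A730081D07Rik shares 7.69% of its exon bases, and the strand setting of the counting is not given in the sources used here.

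C1galt1 (mm9, chromosome 6, 7794842 to 7822047, plus strand), the core 1 enzyme, ranged over 13.97, 21.4 and 21.1 CPM in the CONTROL libraries. The HOXA13 libraries gave 26.4, 27.3 and 25.5 CPM. The HOXA13 values were nearly alike and all above CONTROL, a log2 fold change of 0.49 (SE 0.25, adjusted p 0.434 in edgeR). Its chaperone C1galt1c1 (mm9, chromosome X, 35983962 to 35988264, minus strand) gave 21.2, 22.5 and 23.9 CPM without and 19.8, 26.0 and 19.2 CPM with HOXA13. The chaperone overlapped between the groups and had the log2 fold change nearest to 0 of the set, -0.06 (SE 0.23, adjusted p 0.945 in edgeR).

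Galnt3 (mm9, chromosome 2, 65920823 to 65963051, minus strand) gave 6.03, 24.2 and 17.2 CPM across CONTROL libraries, against 37.7, 24.4 and 27.6 CPM across HOXA13 libraries. The gap between CONTROL replicate 2 and HOXA13 replicate 2 was small, and the log2 fold change was 0.92 (SE 0.47, adjusted p 0.435 in edgeR). Galnt12 (mm9, chromosome 4, 47104781 to 47135942, plus strand), an initiating enzyme known from the colon, gave 1.28, 35.6 and 3.22 CPM across CONTROL libraries, against 12.7, 6.91 and 7.15 CPM across HOXA13 libraries. CONTROL replicate 2 was the highest library and the other CONTROL libraries were the lowest, so that the log2 fold change of -0.58 (SE 1.03, adjusted p 0.858 in edgeR) became 1.96 without that library (adjusted p 0.0577).

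The mucins were low in every library. Muc13 (mm9, chromosome 16, 33794123 to 33820020, plus strand), a mucin of the intestinal surface, received 15, 61 and 16 reads without HOXA13 and 43, 29 and 104 with it. For Muc13 the log2 fold change was 0.66 (SE 0.84, adjusted p 0.793 in edgeR), and it ranged from 0.05 without HOXA13 replicate 3 to 1.71 without CONTROL replicate 2. Muc1 (mm9, chromosome 3, 89032979 to 89037303, plus strand), a mucin of many glandular epithelia, received 3, 38 and 12 reads without HOXA13 and 13, 16 and 9 with it. The CONTROL libraries held both its lowest and its highest value, and the log2 fold change of -0.73 (SE 1.11, adjusted p 0.831 in edgeR) turned to 0.55 without CONTROL replicate 2. Muc4 (mm9, chromosome 16, 32735972 to 32782477, plus strand), a mucin that spans the membrane, received 4, 46 and 3 reads without HOXA13 and 0, 10 and 0 with it. It did not pass the expression filter and was not tested in edgeR. Muc4 and Muc13 share 5.33% and 6.06% of their exon bases with genes on the opposite strand, Muc20 and Gm15657. CONTROL replicate 2, the library with the highest pluripotency markers, was the highest of all 6 for Muc1, Muc4 and Galnt12, and the part of those cells in these values was not tested.

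Levels of different genes were compared as CPM per kilobase of exon. In HOXA13 cells Gcnt2 stood at 20.7 ± 2.25, C1galt1c1 at 14.9 ± 2.62, Gcnt1 at 14.04 ± 1.74, C1galt1 at 10.8 ± 0.374 and Galnt3 at 6.83 ± 1.58 CPM per kilobase (SD, n = 3). Of these neighbours only C1galt1c1 and Gcnt1 overlapped. Galnt12, Gcnt3 and Muc13 followed at 3.90 ± 1.43, 2.12 ± 0.983 and 1.24 ± 0.770, with each pair of neighbours among them overlapping, and Muc1 and Muc4 were lowest at 0.353 ± 0.105 and 0.0166 ± 0.0288 CPM per kilobase (SD, n = 3). In CONTROL cells C1galt1c1 was highest at 15.6 ± 0.939 and Gcnt3 was ninth of 10 at 0.243 ± 0.178 CPM per kilobase (SD, n = 3), and every gene overlapped its neighbour in that order. In HOXA13 cells Gcnt3 was still below Gcnt1 and Gcnt2. Its share of the summed Gcnt1 and Gcnt3 level per kilobase amounted to 0.620%, 3.76% and 4.40% across CONTROL libraries and reached 19.0%, 9.85% and 10.04% across HOXA13 libraries. The groups did not overlap, with means of 2.93 ± 2.02% and 12.98 ± 5.25% (SD, n = 3) and an exact two-sided permutation p of 0.1, the smallest that 3 against 3 samples allow, which was 0.2 when adjusted over both shares tested. Galnt3 and Galnt12 together made up 8.17 ± 8.94% of the level of 19 initiating enzymes in CONTROL and 10.0 ± 2.58% in HOXA13 (SD, n = 3; exact permutation p 0.8). Their share was 18.3% in CONTROL replicate 2 and 1.58% and 4.58% in the other CONTROL libraries.

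**Figure D2:**
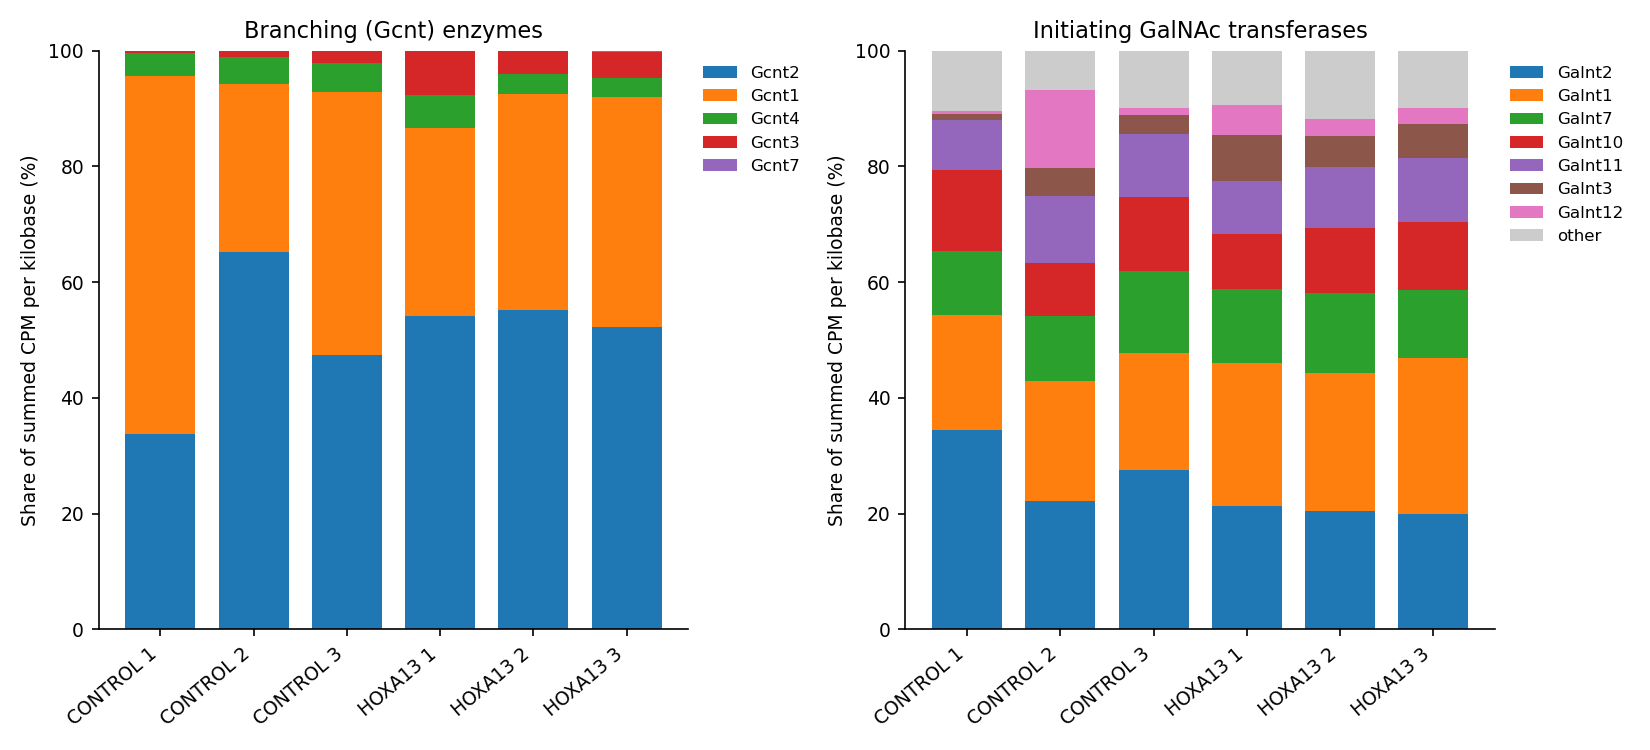
Share of the summed CPM per kilobase (vertical axis, percent) of each Gcnt gene (left) and of each initiating GalNAc transferase (right) in the 6 libraries, with less abundant Galnt genes joined as other. Gcnt3 takes 0.386% to 2.09% of the Gcnt level in CONTROL and 4.08% to 7.66% in HOXA13, and Galnt12 takes 13.5% of the initiating level in CONTROL replicate 2.

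Markers of epithelial cells moved with the same groups. Of 15 epithelial markers, all were higher in HOXA13 by fitted log2 fold change and 12 did not overlap, with none called in edgeR (0 genes, 9 at an unadjusted p under 0.05) and 3 called in DESeq2, all higher. Over all genes 11.5% were higher without overlap, 14.1% had an unadjusted p under 0.05 and 3.11% were called higher in DESeq2. Without CONTROL replicate 2 edgeR called 12 of the 15 higher, against 7.92% of all genes. The marker sum was 1869, 6692 and 4461 CPM across CONTROL libraries, against 8105, 8634 and 9781 CPM across HOXA13 libraries. The 15 mesenchymal markers reached 12253, 2829 and 9914 CPM without and 2333, 5997 and 6050 CPM with HOXA13. Fn1 made up 3374, 2033 and 3728 CPM of these sums without and 1997, 4631 and 4976 CPM with HOXA13. Its log2 fold change was 0.35 (SE 0.37), and its groups overlapped. Of the 15 markers 13 were lower by fitted log2 fold change, of which 1 did not overlap, against 8.52% of all genes lower without overlap. Another mesenchymal marker, 1 of the 15, was higher without overlap, against 11.5% of all genes. Without CONTROL replicate 2 edgeR called 7 of the 15 mesenchymal markers lower, against 6.32% of all genes. The part of either marker group in the differences of the set was not tested. The 8 mesonephric feeder markers together lay between 36.2 and 46.2 CPM without HOXA13 and between 11.9 and 30.7 CPM with it. Hoxd9 made up most of this sum, and without it, a choice made after seeing the data, the sums of the other 7 genes overlapped, at 9.93, 13.7 and 5.70 CPM without HOXA13 and 3.23, 5.92 and 2.49 CPM with it. In these bulk samples fewer cells of a type and less RNA per cell cannot be told apart, and the sort itself used E-cadherin.

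Set against the epithelial marker sum of the same library, the genes of the set differed. The divisor was itself higher in every HOXA13 library, so that a gene with level CPM comes out lower on this scale, and a lower value shows nothing about the gene. Gcnt2 was at 14.5, 15.1 and 12.8 CPM per 1000 CPM of epithelial markers across CONTROL libraries and at 17.7, 13.4 and 13.4 across HOXA13 libraries, with overlapping groups. Galnt3 likewise overlapped, with means of 3.57 ± 0.323 and 3.43 ± 1.05 (SD, n = 3). Gcnt1 and C1galt1 no longer separated the groups, with Gcnt1 at 23.7, 5.96 and 10.9 for CONTROL against 9.47, 8.06 and 9.08 for HOXA13, a ratio of means of 0.656 that was 1.05 without CONTROL replicate 1. Gcnt3 alone was still higher in every HOXA13 library, at 1.72, 0.678 and 0.781 against 0.114, 0.179 and 0.387 in CONTROL. The ratio of means was 4.67, and without 1 library it lay between 3.22 (without HOXA13 replicate 1) and 7.22 (without CONTROL replicate 3). The log2 fold change of Gcnt3, 3.12, was already above the 1.33 median of the 15 markers, so this separation is no further evidence. On this scale C1galt1c1 was lower in every HOXA13 library, with a ratio of means of 0.369, while its CPM overlapped between the groups. Muc1, Muc4, Muc13 and Galnt12 overlapped between the groups. This scaling was chosen after the data had been seen.

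**Figure D3:**
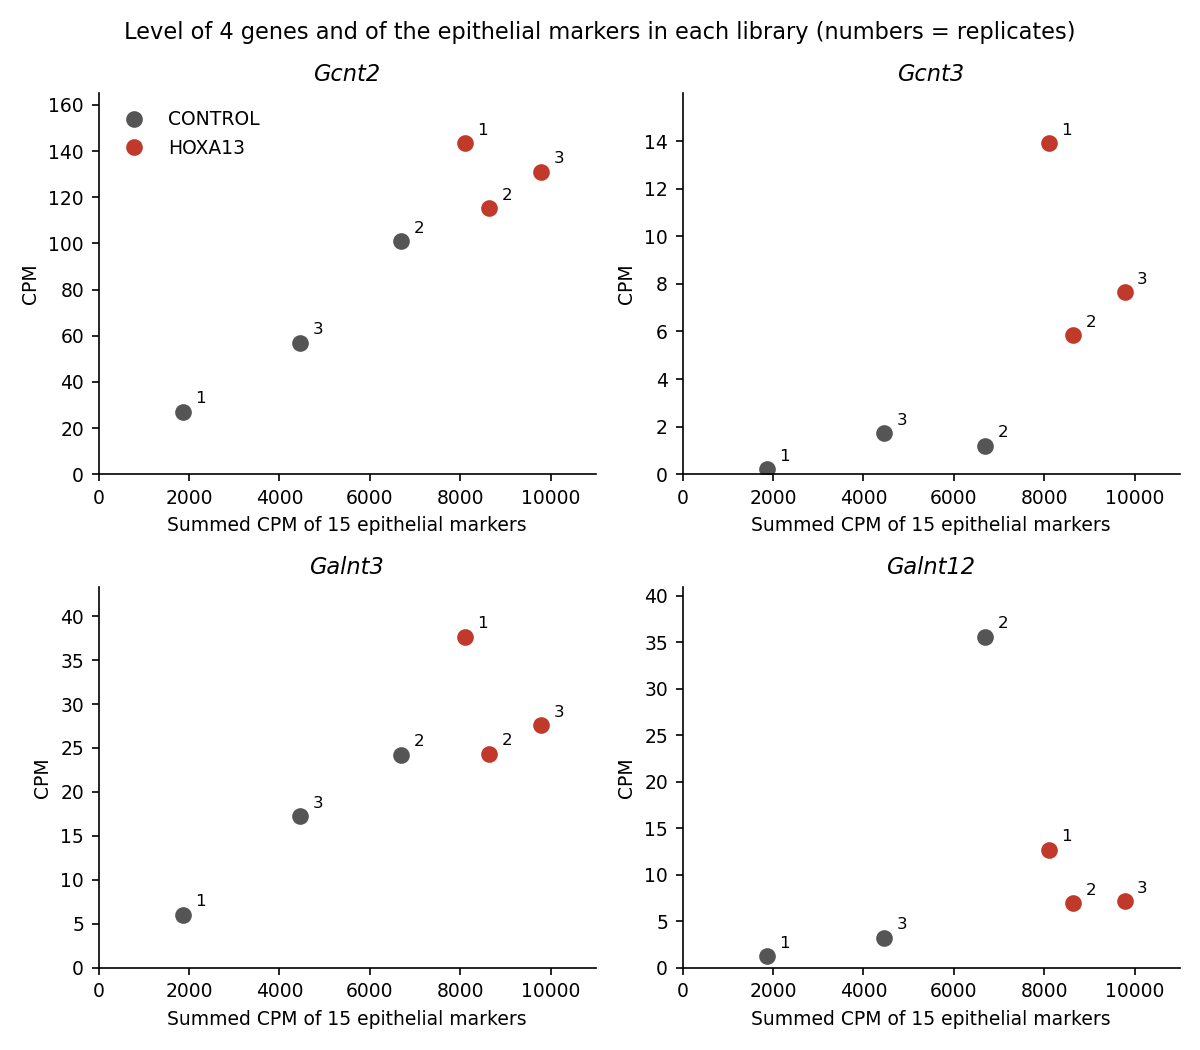
CPM of Gcnt2, Gcnt3, Galnt3 and Galnt12 (vertical axes) against the summed CPM of 15 epithelial markers (horizontal axes) in each library, CONTROL in grey and HOXA13 in red, with replicate numbers. Gcnt2 lies between 12.8 and 17.7 CPM per 1000 marker CPM in all 6 libraries, Gcnt3 lies above the CONTROL ratio in all 3 HOXA13 libraries, and Galnt12 is highest in CONTROL replicate 2.

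The rest of the pathway was described from lists of related genes. Of 80 further genes 72 were listed in the files, 14 of them without a count in any library, and 40 were tested. In edgeR 0 of the 40 passed (7 at an unadjusted p under 0.05, against 14.1% of all genes), and 20 were higher and 20 lower by fitted log2 fold change, with a median of 0.02. DESeq2 called 3, Cd34 and B4galt3 higher and Chst2 lower, against 5.05% of all genes called. Without CONTROL replicate 2 edgeR called 10, Cd34, B3gnt2, B3gnt7, B4galt3 and Klf4 higher and Galnt2, Galnt14, St3gal1, St3gal2 and Chst2 lower, of which B3gnt7, Galnt14, St3gal1 and St3gal2 are named for this count alone, after their values were seen. In that fit 7.92% of all genes were called higher and 6.32% lower. Without overlap 9 were higher and 3 lower, against 11.5% and 8.52% of all tested genes.

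Of the core and branching list, 5 of 6 tested genes were higher without overlap, against 11.5% of all genes, with a median log2 fold change of 0.86, against -0.01, but 5 of these 6 genes belong to the set and are counted above. The 1 tested gene outside the set was Gcnt4, a further core 2 enzyme, with 2.55, 5.76 and 4.95 CPM across CONTROL libraries against 12.1, 5.86 and 6.73 CPM (log2 fold change 0.89, SE 0.50, edgeR adjusted p 0.489). B3gnt6, the core 3 enzyme of the colon, had at most 10 counts in a library and was not tested. Among 14 initiating enzymes, Galnt3 and Galnt12 included, 5 were higher and 9 lower by fitted log2 fold change, with a median of -0.12. Without overlap 5 were higher and 1 lower, against 11.5% and 8.52% of all tested genes, and without CONTROL replicate 2 edgeR called 0 higher and 2 lower, against 7.92% and 6.32% of all genes. Galnt2, the most abundant in CONTROL, averaged 143 ± 36.1 CPM without and 94.3 ± 4.53 CPM with HOXA13 (SD, n = 3; edgeR adjusted p 0.242). Galnt6 and Galnt18 averaged only 1.69 and 2.47 CPM in CONTROL, with log2 fold changes of 1.53 (SE 0.67) and 1.28 (SE 0.61). Their edgeR adjusted p-values were 0.356 and 0.405.

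Among 9 chain extension enzymes B3gnt3 averaged 3.13 ± 0.771 CPM without and 8.45 ± 1.51 CPM with HOXA13 (SD, n = 3; edgeR adjusted p 0.197), and B3gnt2 had a log2 fold change of 0.57 (SE 0.25). That of B3gnt2 ranged from 0.37 without CONTROL replicate 1 to 0.83 without CONTROL replicate 2. B4galt3 had a log2 fold change of 0.81 (SE 0.19, adjusted p 0.116 in edgeR, 0.0180 in DESeq2). B4galt3 and Cd34 lie on chromosome 1, where the median log2 fold change of 493 genes averaging at least 16 CPM was 0.54, 92.5% of them above 0, while on all other chromosomes 7891 such genes had a median of -0.02 with 47.4% above 0. Relative to the chromosome 1 median they stood at 0.27 and 1.02. B3gnt7 lies on the same chromosome, with a log2 fold change of -0.33 (SE 0.92) that stood at -0.86 relative to the median. Its CPM was 5.32, 63.6 and 3.97 across CONTROL libraries against 21.4, 19.4 and 17.2 across HOXA13 libraries, and without CONTROL replicate 2 its log2 fold change turned to 2.04 (edgeR adjusted p 0.00550). B4galt1, the most abundant galactosyltransferase of the list, had a log2 fold change of -0.07 (SE 0.16).

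Of the capping enzymes Chst2, a sulfotransferase of lactosamine chains, gave 37.0, 20.5 and 39.7 CPM across CONTROL libraries and, without overlap, 10.1, 13.4 and 13.6 CPM across HOXA13 libraries. Its log2 fold change was -1.39 (SE 0.31, adjusted p 0.112 in edgeR, 0.00428 in DESeq2). Chst5, a related sulfotransferase, had a log2 fold change of 2.62 (SE 1.16), from 2.02 without CONTROL replicate 3 to 3.61 without CONTROL replicate 1, and the sialyltransferase St3gal4 one of -1.05 (SE 0.44), and edgeR gave adjusted p-values of 0.367 and 0.333. Of the sialomucins Cd34 averaged 13.8 ± 9.15 CPM without and 40.7 ± 14.7 CPM with HOXA13 (SD, n = 3; adjusted p 0.205 in edgeR, 0.0340 in DESeq2). Its log2 fold change of 1.56 was 2.22 without CONTROL replicate 2 (edgeR adjusted p 0.00617) and 1.21 without CONTROL replicate 1. Podxl and Cd164, the most abundant of the sialomucins, had log2 fold changes of 0.79 (SE 0.31) and 0.14 (SE 0.15). These were 0.49 and 0.0406 without CONTROL replicate 1, and 1.00 and 0.23 without CONTROL replicate 2.

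Most other mucins and goblet cell genes were scarce or not detected, with the exception of Klf4. Muc5b, Muc6, Muc20 and Mucl1 had 0 counts in each library, as had Agr2, Tff1, Tff2 and Tff3, which allows up to 0.240 CPM in the shallowest library. Muc2, the secreted mucin of the intestine, received 11, 6 and 3 reads without HOXA13 and 16, 33 and 0 with it. Klf4, a regulator shared by goblet and pluripotent cells, averaged 159 ± 83.1 CPM without and 249 ± 27.2 CPM with HOXA13 (SD, n = 3; log2 fold change 0.64, edgeR adjusted p 0.449). Without CONTROL replicate 2 its log2 fold change was 1.13 (edgeR adjusted p 0.00733), and without CONTROL replicate 1 it was 0.35 (edgeR adjusted p 0.814). Atoh1, the regulator of the secretory lineage and the only other goblet gene tested, received 17, 35 and 11 reads without HOXA13 and 0, 10 and 15 with it (log2 fold change -1.66, SE 1.29, edgeR adjusted p 0.641), and the median of both was -0.51.

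**Figure D4:**
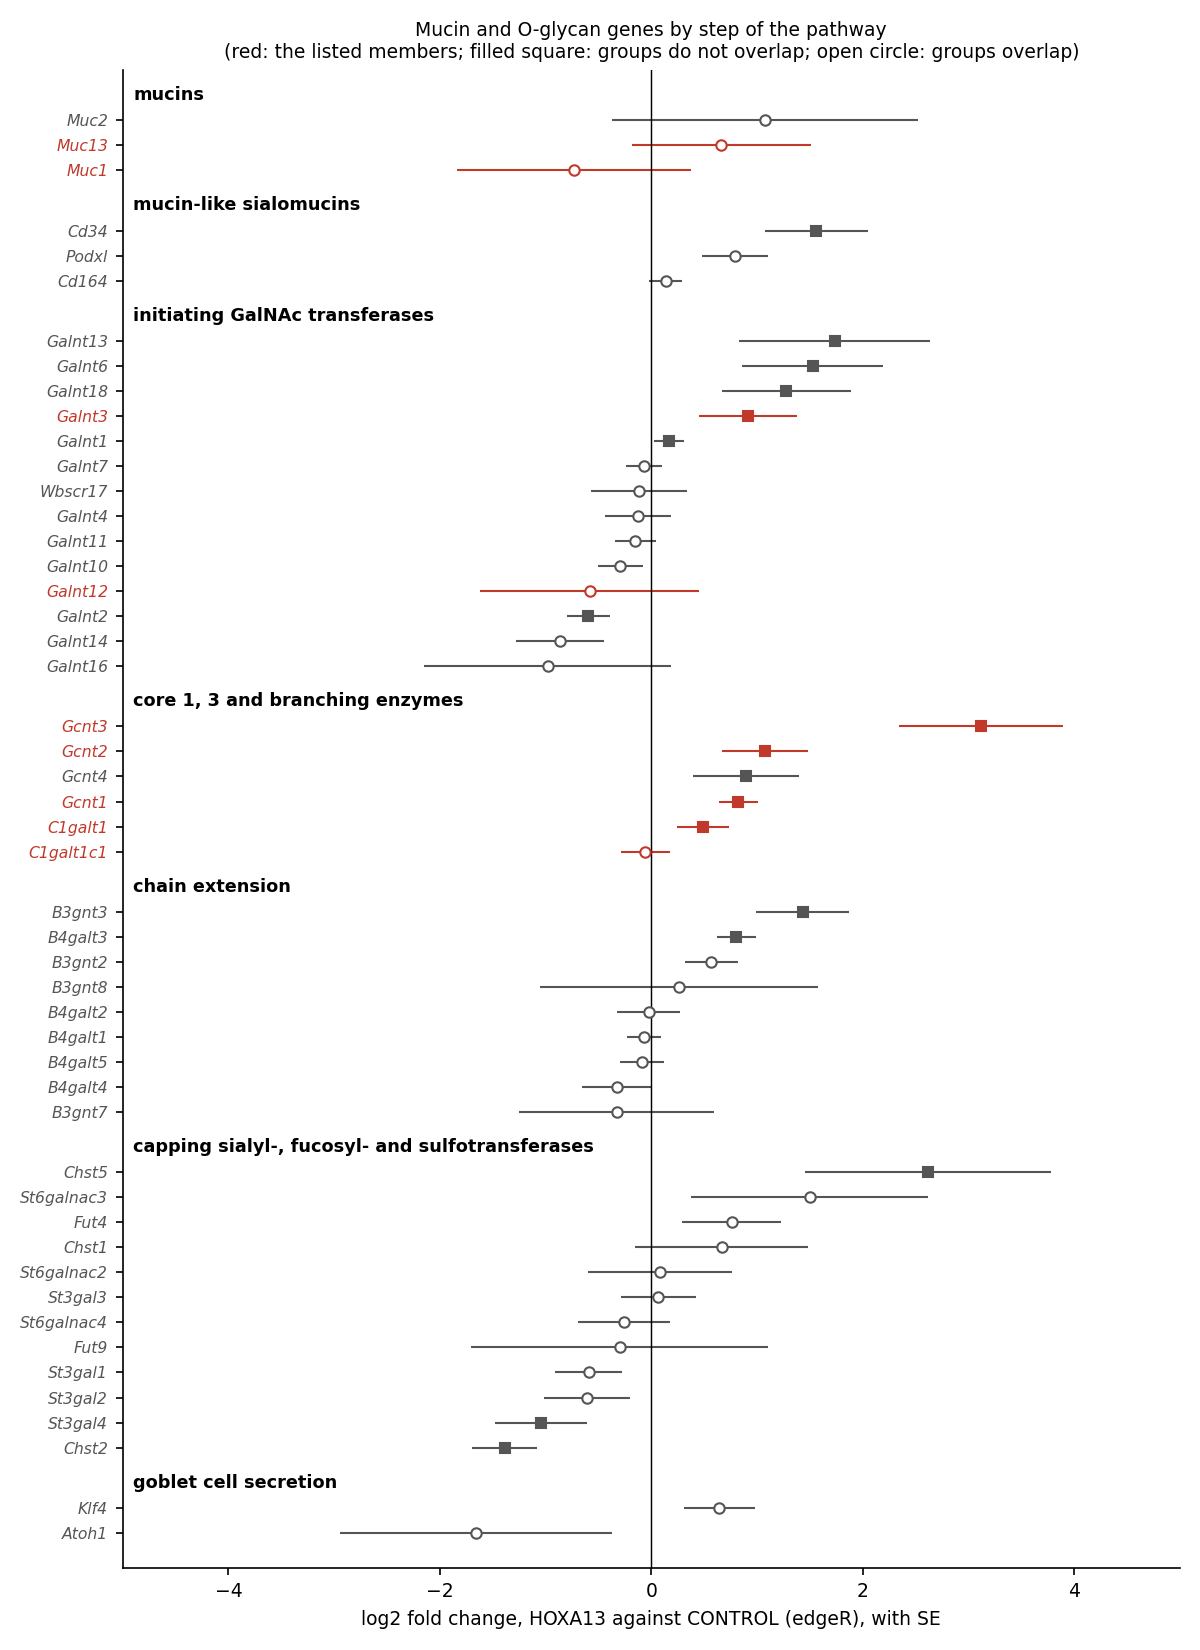
Log2 fold change of HOXA13 against CONTROL (horizontal axis, edgeR, with SE) for every tested gene of the mucin and O-glycan lists, grouped by step, with the 9 tested genes of the set in red. Filled squares mark genes whose groups do not overlap, and 5 of the 6 core and branching genes lie above 0 in this way.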

How the data were processed

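Stranded poly-A libraries were sequenced in 75-base reads, and the authors aligned them to mm9 with TopHat and counted reads per gene with HTSeq. The submitters' processing notes name TopHat2 2.0.14 and HTSeq 0.6.1p1, whereas the methods of the study name another TopHat release. What was deposited is an unnormalised read count for each gene symbol and library. The annotation and strand setting are not given in the sources used here. No stretch of 75 bases of the coding transcripts of the 10 genes occurred in another gene.

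The genes and lists were chosen with earlier results of these data known. Named genes were all 10 of the set and, of the other lists, those called by either tool, the 8 with the smallest p and the 5 with the highest level per length. Gcnt4, B3gnt6, Muc2, Atoh1, Eomes, Hoxd9, Fn1, Cer1 and the genes without a count are named outside this rule, after their values were seen, to account for their lists. R 4.3.3 with edgeR 4.0.16 was used (filterByExpr with a minimum count of 10, TMM, glmQLFit and glmQLFTest on group alone, Benjamini-Hochberg adjustment, threshold 0.05), and the code was tested on simulated data. DESeq2 1.42.0, RLE scaling, no filter, the method edgeR 4 introduced, a replicate block and leaving out each library were alternatives. Shares were tested by exact permutation. Gene positions and lengths are those of GENCODE M1 on mm9. Replicates were separate clones or cultures only as far as the study says, so p-values measure the spread between these samples.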

Additional observations from a re-analysis of the deposited data

How the results depend on the processing

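Each of 9 genes was refitted under 11 alternatives, giving 99 values, of which 90 kept their direction and their side of the threshold, 5 passed the threshold in the same direction and 4 turned sign. The 5 were Gcnt1 and Gcnt3 in DESeq2 and Gcnt1, Gcnt2 and Gcnt3 without CONTROL replicate 2. The number of the 10 genes called was 0 in edgeR, 2 in DESeq2 (2 higher) and 0 to 3 without 1 library (0 to 3 higher), the 3 coming without CONTROL replicate 2. Of the other pathway genes 0 were called in edgeR, 3 in DESeq2 (2 higher, 1 lower) and 0 to 10 without 1 library (0 to 5 higher, 0 to 5 lower), the 10 again coming without CONTROL replicate 2. The cause was not tested.

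Galnt12 turned to 0.76 with the replicate block, and its log2 fold change ranged from -1.15 to 1.96 without 1 library. Without 1 library Gcnt2 ranged from 0.69 to 1.61, Galnt3 from 0.50 to 1.34, C1galt1 from 0.29 to 0.57 and Muc13 from 0.05 to 1.71. In the same refits Muc1 ranged from -1.27 to 0.55, C1galt1c1 from -0.24 to 0.0037 and B4galt1 from -0.15 to 0.0233. On the scale of the summed epithelial markers, chosen after seeing the data, Gcnt1 turned to -0.61, Muc13 to -0.33, Galnt3 to -0.0584 and C1galt1 to -0.77 (log2 ratio of means). The divisor is higher in every HOXA13 library, so these turns show only that the genes differed less than the markers, and only that of C1galt1 held without each library in turn (Gcnt1 was 0.0739 without CONTROL replicate 1, Muc13 0.0104 without HOXA13 replicate 2, and Galnt3 0.00266, 0.0640 and 0.0644 without CONTROL replicate 3, HOXA13 replicate 2 and HOXA13 replicate 3). The difference in the share of Gcnt3 was 10.1 percentage points, and it kept its direction in each alternative. The difference in the share of Galnt3 and Galnt12 was 1.83 percentage points and ranged from -1.46 to 6.92 without 1 library. The cause was not tested. With the replicate block 0 of the 10 genes and 0 of the others were called. Deviations from the group means correlated at -0.128 on average between samples of the same number and at 0.0724 between samples of different numbers. With 3 samples in each group this cannot decide whether the numbers pair the samples, and no pairing is stated. Depth limits the low genes most, since the CONTROL libraries held 3 to 23 reads of Gcnt3.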
